A study of Mus musculus with 12 samples.

Results

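Accessible chromatin was examined at 10 genes of myoblast fusion and cell adhesion: Mymk, Mymx, Cdh15, Cdh2, Ncam1, Jam2, Jam3, Kirrel, Itga7 and Cd9. Peaks were assigned to a gene if they were centred on it or on its flanks of 10 kb. By this rule the genes held 46 of the 34118 peaks of the wild-type (WT) list and 33 of the 27187 peaks of the Runx1 knockout (KO) list. The cells were C2C12, an established mouse myoblast line, either WT or lacking Runx1, one of the RUNX transcription factors. They were kept in growth medium with 20% serum (day 0), and each genotype had 3 samples in that medium. In ATAC-seq, the Tn5 transposase inserts adapters into open DNA, and a peak is a stretch where such insertions pile up. Every deposited peak is named after the replicate 1 library of its genotype, and no value per replicate was used, so nothing below has a replicate error and no test between genotypes was possible. Whether replicates 2 and 3 took part in selecting the retained peaks is not given in the sources used here, so a peak missing from a list may have been absent from the call or removed by that selection. How the KO line was made, and whether it is a single clone, is not given in the sources used here. The day 2 samples, in differentiation medium, were not analysed here.

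Myoblasts become muscle fibres by leaving the cell cycle, recognising each other, adhering and merging their membranes. Cadherins, immunoglobulin-type adhesion molecules and integrins hold the cells in contact. The membrane proteins myomaker and myomerger then carry out the merger itself. Growth medium is meant to hold C2C12 cells as single dividing myoblasts, before fusion begins. Whether any cells of these cultures had fused is not given in the sources used here.

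A WT peak was called WT specific when no KO peak overlapped it by at least 1 bp, and KO specific peaks were defined the other way round. All other peaks were shared. Each peak carries a fold over local background and a −log10 q, both the authors' own values. They depend on library depth, which is unknown, and are used here only to rank peaks within a list. The values of a WT peak and its KO partner are printed side by side but are not compared. The percentile of a peak is the share of its own list with a lower −log10 q.

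Of the 46 WT peaks at the 10 genes, 14 were WT specific (30.4%), against 27.3% of all WT peaks. Of the 33 KO peaks, 1 was KO specific (3.03%), against 9.59% of all KO peaks. The WT share lay near that of the whole list, and the KO share rested on a single peak, at Cdh2. WT peaks outnumbered KO peaks at 8 of the 10 genes, and the numbers were equal at Cdh15 and Cd9. Of all protein-coding genes with a peak in either list, 36.6% had more WT than KO peaks and 56.4% as many, shares not matched to the members on peaks per gene. Mymk and Jam3 had a WT peak and no KO peak at all.

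**Figure D1:**
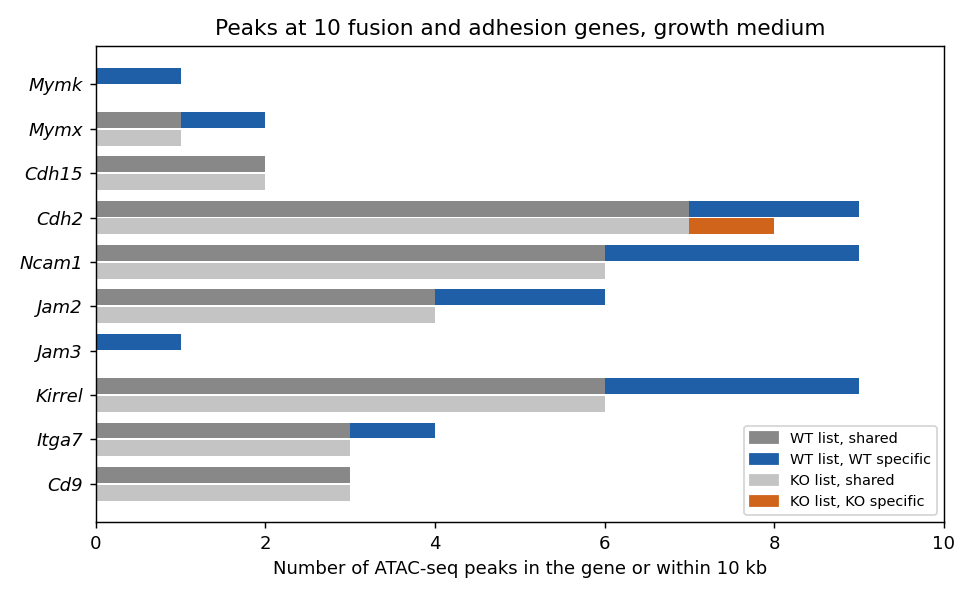
Number of ATAC-seq peaks (x axis) assigned to each gene (y axis), 1 bar for the WT list and 1 for the KO list, with genotype-specific peaks in colour. Ncam1 and Kirrel carry 3 WT specific peaks each, Cdh15 and Cd9 carry none, and the only KO specific peak is at Cdh2.

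**Figure D2:**
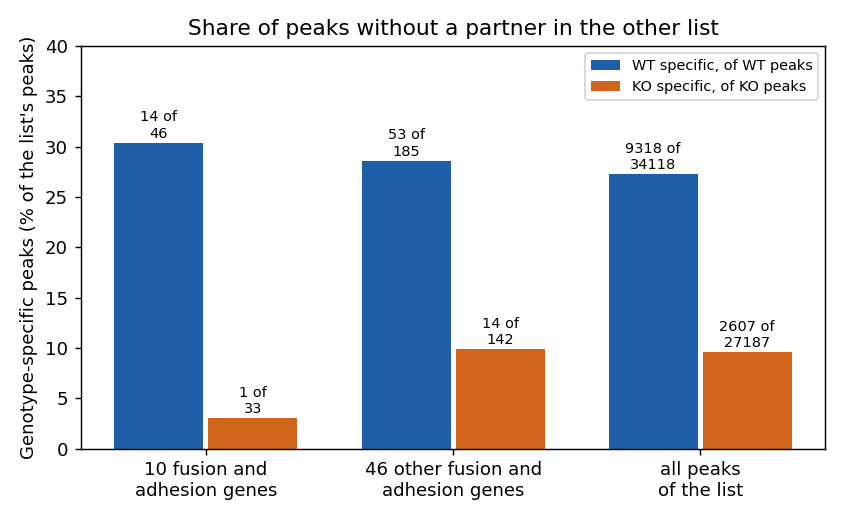
Share of genotype-specific peaks (y axis, % of the peaks of that list) at the 10 genes, at 46 other fusion and adhesion genes and in the whole lists. The bars for WT specific peaks stand at 30.4%, 28.6% and 27.3%, and those for KO specific peaks at 3.03%, 9.86% and 9.59%.

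Of the 10 genes, 8 had a WT specific peak, while 39.1% of the protein-coding genes with a WT peak had one. A KO specific peak was present at 1 of the 8 members with a KO peak, against 12.3% of such protein-coding genes. The WT proportion moves with the number of peaks per gene. Among protein-coding genes with 4 to 9 WT peaks, 79.4% had a WT specific peak, as did all 5 members in that range (Itga7, Jam2, Cdh2, Ncam1 and Kirrel). Among genes with 2 to 3 WT peaks it was 43.7%, and 1 of 3 members had one (Mymx, but not Cdh15 or Cd9). Where a gene had exactly 1 WT peak, that peak was WT specific in 16.5% of cases, and it was so for both members of this kind, Mymk and Jam3. Both peaks ranked below the WT list's median −log10 q (percentiles 47.7 and 36.8), where 48.5% of all WT peaks were WT specific. The 16.5% was not matched on −log10 q. A WT peak without any KO peak in range was found for 7.64% of protein-coding genes with a WT peak and for 2 of the 10 members. These bins by number of peaks were chosen after the values had been seen. The calls per gene also turn with the distance limit: within 20 kb, Cdh15 and Cd9 gain 1 WT specific peak each, so that all 10 genes have one, and Itga7 gains 1 KO specific peak. A wider limit can only add peaks to a gene, and the share of all protein-coding genes was not taken at 20 kb.

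RefSeq promoter sequences (GRCm38.p6) were at hand for 3 of the 10 genes, Cdh15, Kirrel and Cd9. They are shown because the 3 starts differ in accessibility: the Kirrel start lay under a peak of both lists, and the other starts under a peak of neither. Each sequence is the 250 bases before the gene's start, 5′ to 3′ on the gene's strand. Capitals mark matches, on either strand, to the E-box CANNTG (with its forms CAGCTG and CACCTG), the RUNX motifs TGTGGT and TGCGGT, the ETS motifs CCGGAA and AGGAAG, the TEAD motif GGAATG, the AP-1 motif TGANTCA or the MEF2 motif (CTA and TAG separated by 4 bases). Kirrel lies at chr3:87174538-87174787 on the minus strand, Cdh15 at chr8:122848124-122848373 on the plus strand and Cd9 at chr6:125494761-125495010 on the minus strand.
Kirrel: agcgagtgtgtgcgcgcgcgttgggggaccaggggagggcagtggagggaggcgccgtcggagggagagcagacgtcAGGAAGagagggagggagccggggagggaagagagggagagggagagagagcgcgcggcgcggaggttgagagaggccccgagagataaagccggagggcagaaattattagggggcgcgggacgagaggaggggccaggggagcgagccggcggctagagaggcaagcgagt
Cdh15: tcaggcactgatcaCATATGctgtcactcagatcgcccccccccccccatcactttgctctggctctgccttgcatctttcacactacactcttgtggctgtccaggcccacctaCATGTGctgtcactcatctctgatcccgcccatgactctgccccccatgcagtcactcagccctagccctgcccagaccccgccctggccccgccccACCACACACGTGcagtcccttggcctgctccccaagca
Cd9: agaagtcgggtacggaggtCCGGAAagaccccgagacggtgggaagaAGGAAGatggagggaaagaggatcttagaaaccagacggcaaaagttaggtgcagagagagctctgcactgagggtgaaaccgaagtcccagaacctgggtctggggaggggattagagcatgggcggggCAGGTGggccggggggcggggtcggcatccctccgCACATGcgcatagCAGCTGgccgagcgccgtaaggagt

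The Kirrel window had a GC content of 68.8% and 24 CpG dinucleotides. Its only match was 1 AGGAAG, a motif present in 29.6% of the 32619 windows of the table. The gene interval in the table extends past this start, to 87174777, so most of the printed stretch is also annotated as Kirrel. In the Cdh15 window, with 62.0% GC and 5 CpG dinucleotides, there were 3 E-boxes (found in 66.2% of windows) and 1 TGTGGT (13.9% of windows), which stands 32 bases before the start and directly beside the E-box CACGTG. The Cd9 window had 61.6% GC and 16 CpG dinucleotides. It held 3 E-boxes, of which 1 was CAGCTG (13.1% of windows) and 1 CACCTG (17.3%), as well as 1 CCGGAA (12.1%) and 1 AGGAAG. Over all promoter windows of 300 bases, 29.6% were overlapped by a WT peak and 27% by a KO peak. Windows with a WT peak had a median GC content of 61.2% and a median of 18 CpG dinucleotides, against 49.2% and 3 for those without. The windows of 300 bases also hold 50 bases after the start, which the printed 250 bases leave out. The counts of the 3 genes may therefore not be matched in length to these medians. A match is a description of the sequence, and these letters say nothing about whether a factor was bound.

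The fusion proteins come first. Mymk encodes myomaker, a multipass membrane protein required for fusion. In the WT list it had 1 peak, at chr2:27069703-27069898, inside the gene and 2.36 kb from its higher-coordinate end. That peak was 196 bp wide, with a fold of 9.15 and a −log10 q of 15.4, at percentile 47.7 of the WT list. The nearest KO peak lay 26.6 kb away. Deposited peaks keep their running call numbers along each chromosome, and a number that is skipped between neighbouring peaks marks a call removed before deposit. No KO number was skipped around the Mymk peak, so no numbered KO call was dropped around it.

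Mymx encodes myomerger, a short membrane protein that works with myomaker. No peak of either list lay inside this short gene (1.24 kb). The shared peak of its surroundings, at chr17:45596664-45597375, had a −log10 q of 43.2 in the WT list (percentile 88.6), and its KO partner had one of 27.9 (percentile 74.7 of the KO list). It lies in the neighbouring gene Slc29a1 and overlaps a promoter window of that gene. The other WT peak, at chr17:45610303-45610558, was WT specific and weak, with a −log10 q of 7.35 at percentile 16.4. It lay 8.23 kb from Mymx, and 1 KO call number was missing beside it. Without any peak in the gene, the Mymx count rests on its flanks.

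Both cadherins had shared peaks. Cdh15 encodes M-cadherin, a calcium-dependent adhesion molecule characteristic of myoblasts. Its 2 WT peaks lay near the start of the gene, at chr8:122850658-122850951 and chr8:122851627-122852144. The second was the stronger in both lists, with a −log10 q of 43.8 (percentile 89.0) in the WT list, and its KO partner had 25.7 (percentile 70.8). Its summits in the lists were 1 bp apart. The first had 13.6 (percentile 41.9) in the WT list and its partner 13.5 (percentile 35.9). The nearest peaks to the Cdh15 start were 2.28 kb (WT) and 2.29 kb (KO) away.

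Cdh2 encodes N-cadherin, which many cell types besides myoblasts carry. It had 9 WT peaks, 7 shared and 2 WT specific, and 8 KO peaks, 7 shared and 1 KO specific. The strongest WT peak, at chr18:16704675-16705116, had a −log10 q of 33.3 (percentile 81.0), and the strongest KO peak, at chr18:16740681-16741168, had one of 26.0 (percentile 71.3). A WT specific peak at chr18:16593122-16593761 had the highest −log10 q among all WT specific peaks of the 10 genes, 21.6 (percentile 63.4), and was also the widest of them, with 640 bp. It lay 4.56 kb from the lower-coordinate end of the gene, and the nearest KO peak was 103 kb away. Between the KO peaks that flank this WT specific peak on either side, 10 KO call numbers were missing. The second, at chr18:16730076-16730531, had 9.79 (percentile 27.1), and no KO number was skipped around it. The KO specific peak, at chr18:16696309-16696503, had a −log10 q of 19.8 (percentile 56.4 of the KO list) and a width of 195 bp. It was separated by 8.17 kb from the nearest WT peak, and 2 WT call numbers were missing beside it. At the higher-coordinate end, a pair of shared peaks stood within 1 kb of the end. These were weak, with a −log10 q of 10.99 and 5.77 for the WT peaks (percentiles 32.1 and 9.77). Their KO partners had 8.95 and 4.31 (percentiles 17.8 and 2.67).

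Ncam1 encodes the neural cell adhesion molecule NCAM, an immunoglobulin-type protein found on neurons and on myoblasts. All 9 of its WT peaks lay inside the gene, which spans 297 kb, and 6 were shared. A pair of the shared ones also lies in the predicted gene Gm11149. The shared peak with the highest −log10 q, at chr9:49792705-49793099, had 42.5 (percentile 88.3) as a WT peak and 38.9 (percentile 87.4) as a KO peak, with summits 3 bp apart. The broadest, at chr9:49663055-49664301, spanned 1247 bp in WT and 1290 bp in KO. Its 3 WT specific peaks all ranked low. They lay at chr9:49644451-49644586 (−log10 q 7.95, percentile 19.3), chr9:49722876-49723216 (4.30, percentile 4.55) and chr9:49798908-49799097 (7.38, percentile 16.6). The last of them was 0.391 kb from the higher-coordinate end of the gene, and the nearest KO peak was 1.51 kb away. Between 1 and 2 KO call numbers were missing beside each.

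Jam2 and Jam3 encode the junctional adhesion molecules JAM-B and JAM-C, which bind each other on opposing cells. At both genes a WT peak that overlapped an end of the gene had no KO partner. At Jam2 this peak was chr16:84774103-84774361, across the lower-coordinate end, with a fold of 7.72 and a −log10 q of 14.4 (percentile 44.6). The nearest KO peak was 1.84 kb away. At Jam3 it was chr9:27155354-27155692, across the higher-coordinate end, with a fold of 9.01 and a −log10 q of 12.2 (percentile 36.8). This was the only Jam3 peak in either list, and the nearest KO peak was 36.0 kb away. Beside each of these 2 peaks, 2 KO call numbers were missing.

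The other Jam2 peaks inside the gene were shared. The WT peak at chr16:84776179-84776644 had a −log10 q of 26.5 (percentile 72.2) and its KO partner 17.2 (percentile 48.8). At chr16:84783266-84783675 the WT value was 26.3 (percentile 71.9) and that of the KO partner 21.4 (percentile 60.8). The third, at chr16:84790664-84790904, ranked low in the WT list, with 4.93 at percentile 6.49, and had 12.1 at percentile 30.3 in the KO list. The strongest peak of the Jam2 window, at chr16:84834629-84835119 (45.2, percentile 89.7), overlapped a promoter window of Gabpa, which encodes an ETS factor, and had a KO partner of 39.5 (percentile 87.8). A weak WT specific peak next to it, at chr16:84835353-84835656 (4.89, percentile 6.38), overlapped a promoter window of Atp5j and was 0.25 kb from the KO peak. These outer peaks are assigned to Jam2 by distance alone.

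Only 3 WT peaks overlapped an end of the member they belong to, and 2 of them, at Jam2 and Jam3, were WT specific. The third was the shared Kirrel peak. Over the whole WT list, 9.66% of the peaks that overlap an end of a protein-coding gene were WT specific. With the limit widened to a centre within 1 kb of an end of any protein-coding gene, 8 WT peaks of the members qualified and 4 were WT specific, against 14.4% of all such WT peaks. Besides those at Jam2 and Jam3, the 4 included the Ncam1 peak named above and the peak on the Atp5j window. All 4 ranked below the WT list's median −log10 q (percentiles 44.6, 36.8, 16.6 and 6.38), where 48.5% of all WT peaks were WT specific. The shares for peaks near ends of protein-coding genes were not matched on −log10 q. None of the 4 KO peaks within 1 kb of such an end was KO specific. The share over all KO peaks near such ends was not taken, and in the whole KO list it was 9.59%. No test was made on numbers of this size. The gene table gives no strand for these genes, so the ends are named by coordinate.

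**Figure D3:**
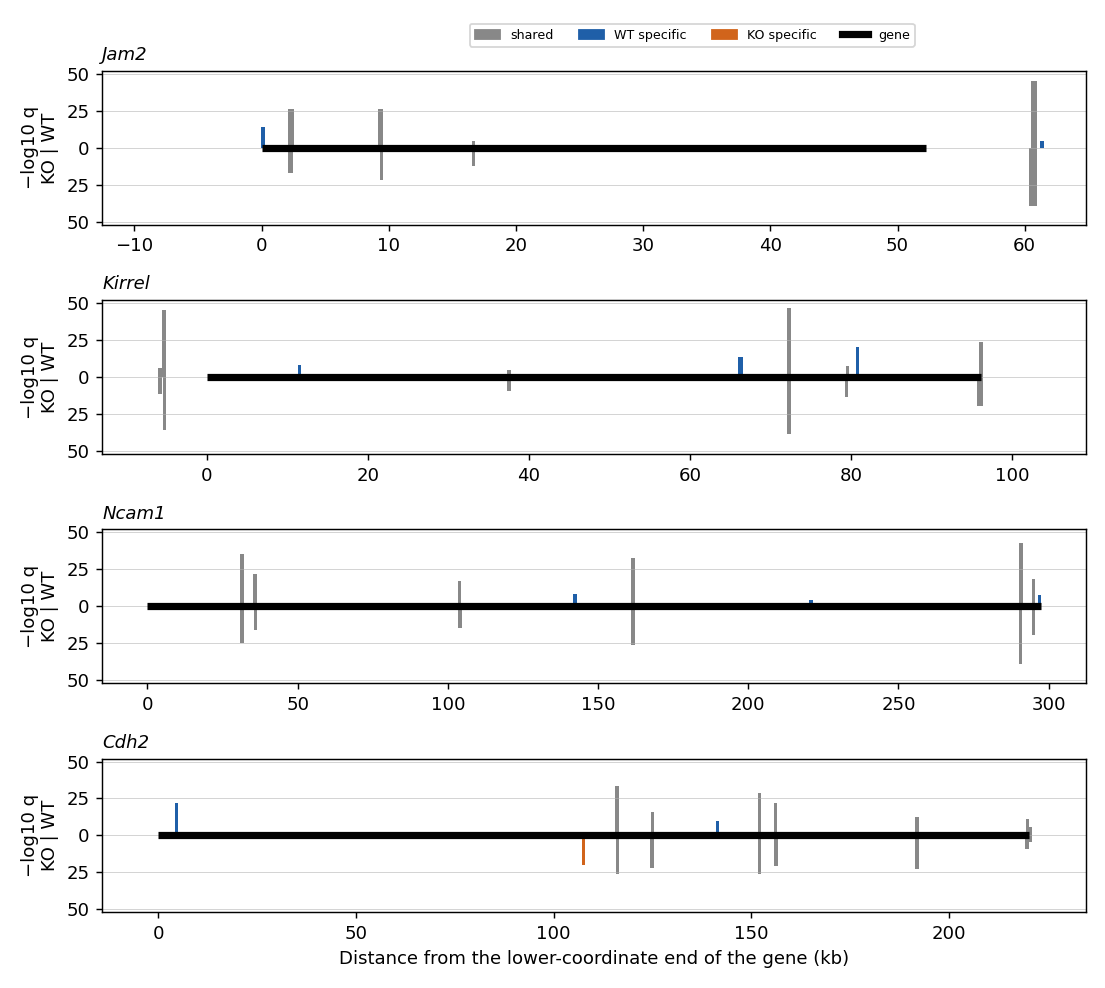
Peaks of the WT list (up) and of the KO list (down) along Jam2, Kirrel, Ncam1 and Cdh2, with the distance from the lower-coordinate end of the gene in kb (x axis) and the deposited −log10 q (y axis, same scale in each direction); narrow peaks are drawn wider than they are. The Jam2 peak across the end at 0 kb and the Ncam1 peak near the right-hand end appear in the WT list only, while the Kirrel peak at the right-hand end is in both; heights are not compared between the lists.

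Kirrel encodes a nephrin-like immunoglobulin protein related to the fusion receptors of insect myoblasts. It had 9 WT peaks, 6 shared and 3 WT specific, and 6 KO peaks, all shared. The peak over its start, at chr3:87174494-87175028, had a −log10 q of 23.6 (percentile 67.4) in the WT list. Its KO partner, chr3:87174291-87175029, had 19.3 (percentile 55.0 of the KO list), and together they cover the printed promoter. Inside the gene, the shared peak at chr3:87150671-87151219 had 46.4, the highest of all member peaks, at percentile 90.4 of the WT list. Its KO partner had 38.8 at percentile 87.3. Outside the gene, at chr3:87073026-87073519, a shared peak had 45.1 (percentile 89.7), and its KO partner had 36.1 (percentile 84.9).

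The WT specific peaks at Kirrel were spread through the gene. The strongest, at chr3:87159311-87159574, had a −log10 q of 20.2 (percentile 60.3) and lay 1.03 kb from the nearest KO peak. The others, at chr3:87144558-87145170 and chr3:87090075-87090238, had 13.8 (percentile 42.6) and 8.08 (percentile 19.8). Beside each of the 3, 1 KO call number was missing. The peak at chr3:87144558-87145170 was the only one of the 14 WT specific member peaks that carries an unexplained mark in an unlabelled column of the deposited list, which 10.7% of all WT specific peaks carry.

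Itga7 encodes the integrin subunit alpha 7, part of the laminin receptor of muscle cells. It had 4 WT peaks, 3 of them shared, and 3 KO peaks. Outside the gene, the shared peak at chr10:128931332-128931795 had a −log10 q of 26.8 (percentile 72.8) in the WT list. Its partner was the highest Itga7 peak of the KO list, with 37.0 (percentile 85.8). The highest WT peak, at chr10:128935927-128936224 inside the gene, had 28.8 (percentile 75.6) and its KO partner 18.3 (percentile 52.1). That site was 298 bp wide in WT and 737 bp in KO. The WT specific peak, at chr10:128945720-128945922, had 16.0 (percentile 49.5), and the nearest KO peak was 9.36 kb away. Both the WT specific peak and the shared site inside the gene also lie in the predicted gene Gm46186, so neither can be given to Itga7 alone.

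Cd9 encodes a tetraspanin of the cell surface. All 3 of its peaks were shared, and all lay inside the gene, more than 10 kb from its start. The strongest in the WT list, at chr6:125481816-125482322, had a −log10 q of 26.9 (percentile 72.8), and its KO partner had 11.4 (percentile 27.6). It overlaps a promoter window of the predicted gene Gm28809. That peak and the shared peak at chr6:125483525-125483762 also lie in Gm28809, so neither can be given to Cd9 alone. The other sites had 10.96 and 8.82 as WT peaks (percentiles 32.0 and 22.9) and 13.1 and 10.6 as KO peaks (percentiles 34.5 and 24.4). No KO peak of Cd9 ranked above percentile 34.5.

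**Figure D4:**
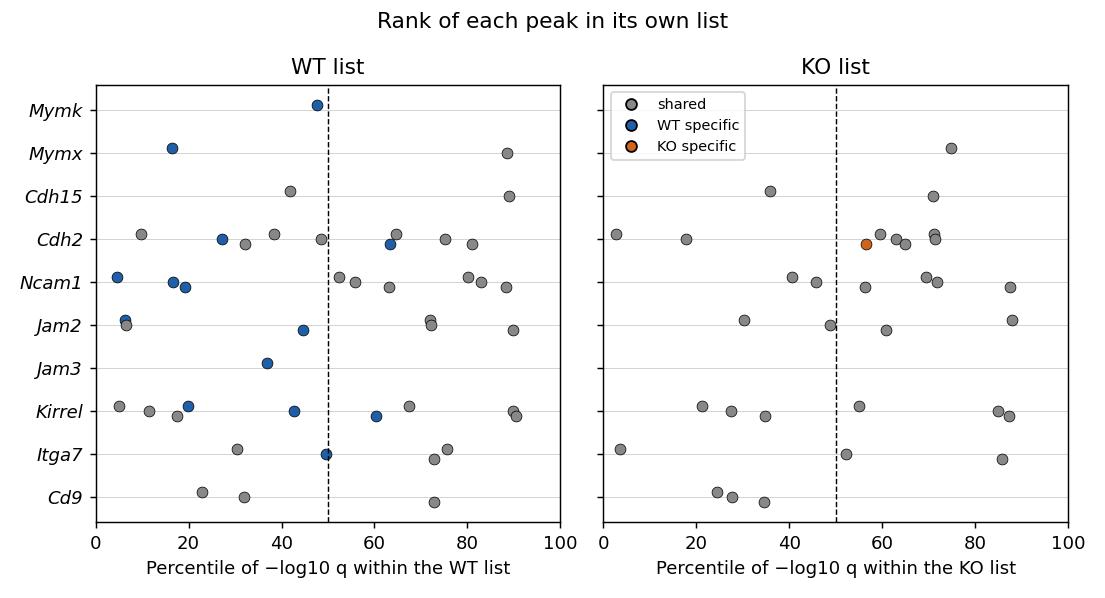
Percentile of each member peak by −log10 q within its own list (x axis) for each gene (y axis), WT list on the left and KO list on the right, with the list median dashed. Most WT specific peaks lie left of the median, the 2 exceptions being at Cdh2 and Kirrel, and the KO specific peak at Cdh2 lies at percentile 56.4.

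The member peaks reached from percentile 4.55 to 90.4 of the WT list and from 2.67 to 87.8 of the KO list. WT specific peaks had a median −log10 q of 10.98 and a median width of 261.5 bp, against 22.9 and 465 bp for shared WT peaks of the members. In the whole WT list these medians were 8.38 and 250 bp for WT specific and 21.1 and 424 bp for shared peaks. Among the 22 member peaks that reached the WT list's median −log10 q, 2 were WT specific, the strongest ones at Cdh2 and Kirrel, beside 6.17% of all WT peaks that reached it. Below the median, 12 of 24 member peaks were WT specific, beside 48.5% of all WT peaks there. At least 1 KO call number was missing beside 12 of the 14 WT specific member peaks (85.7%), and beside 86.9% of all WT specific peaks. The 2 exceptions were the Mymk peak and the second Cdh2 peak. A missing number says that a call in the stretch was removed, not where in the stretch it was.

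The 32 shared WT peaks overlap a KO peak by definition, and their summit distances were close to those of all shared WT peaks. The median distance between WT and KO summits was 28 bp, and 71.9% of the pairs were within 50 bp, against 31 bp and 68.1% over all shared WT peaks. The farthest pair, 539 bp apart, was at Ncam1 (chr9:49605748-49606183), where the KO peak spans 975 bp and the WT peak 436 bp. KO partners were wider at 15 of the 32 sites (46.9%), against 53.1% of all shared WT peaks. A KO partner at least 1.5 times as wide was found at 6 sites (18.8%, against 13.9% of all), and a WT peak at least 1.5 times as wide as its partner at 1 site (3.12%, against 8.86%).

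A wider list of 46 genes of fusion, contact signalling and the actin machinery placed these counts in the pathway. Of its 185 WT peaks, 53 were WT specific (28.6%), and of its 142 KO peaks, 14 were KO specific (9.86%), both close to the shares of the whole lists. WT specific peaks outnumbered KO specific ones at 21 genes, KO specific ones were in excess at 5, and numbers were equal and above 0 at 2. With a peak in either list at 38 of the 46 genes, these counts stand beside 35.6% (WT specific in excess) and 6.67% (KO specific in excess) of the protein-coding genes with a peak, again not matched on peaks per gene. At 10 genes all peaks were shared, a count not taken over all protein-coding genes, and 8 genes had no peak in either list. Over all protein-coding genes, 14224 of 21631 had a peak in either list. The genes without any peak were Cav3, Itga4, Itga9, Cdh4, Cdh11, Nphs1, Adgrb1 and Adgrb3.

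Genes of this list with at least 3 specific peaks of 1 genotype are named. Kirrel3, a relative of Kirrel, had 6 WT specific peaks among 15 and no KO specific peak. Gsn, which encodes the actin-severing protein gelsolin, had 6 among 9, and its KO list held 3 peaks. Trio and the guanine nucleotide exchange factors Dock1 and Dock5, which activate Rac in fusing cells, had 4 WT specific peaks each, with 0, 1 and 1 KO specific ones. Myof, for the membrane protein myoferlin, had 3 among 13 WT peaks. Dysf, for the related dysferlin, was the exception, with 3 KO specific peaks among 11 and 2 WT specific peaks among 10. No count was scaled by gene length.

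Ncam1 and Kirrel shared the same pattern, with 3 WT specific, no KO specific and 6 shared WT peaks. Apart from them, 16 protein-coding genes outside the 10 had exactly these counts. The nearest in length to Ncam1 were Uvrag, Tcf4 and Prkag2, and the nearest to Kirrel (96.2 kb) were Sh3pxd2b, Mtcl1 and Gipc2. At least 3 WT specific peaks without a KO specific one were found at 3.07% of the protein-coding genes with a WT peak.

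Just inside the 10 kb limit lay the outer Jam2 peaks, 8.49 and 9.12 kb from the gene. Just outside it lay 2 shared WT peaks at Itga7, 10.09 and 10.13 kb from the gene, with a −log10 q of 28.5 and 13.7. The lists were also checked for the targeted gene and for cell identity. At Runx1 there were 19 WT peaks, of which 7 were WT specific, and 12 KO peaks, all shared. In the whole lists, 27.3% of WT peaks were WT specific and 9.59% of KO peaks were KO specific. The edited allele itself cannot be read from peak lists. Of 6 myoblast genes, 5 had a WT peak and 4 a KO peak. Myod1, Des, Chrna1 and Cdh15 had peaks in both lists, and Cdh15 is itself a member. Pax7 had 1 WT peak, which was WT specific, and no KO peak, while Myf5 had none. None of the 4 immune genes had a peak. All 4 endothelial genes had a WT peak within the same distance and 3 had a KO peak, and 2 of 4 neuronal genes had peaks in both lists. The neuronal genes were Tubb3, without a specific peak, and Rbfox3, where no peak was shared (2 WT specific and 1 KO specific). Of 3 hepatocyte genes, none had a WT peak and 1, Ttr, had a KO peak, which was KO specific. Since 64.6% of protein-coding genes had a WT peak by this rule, and 60.8% a KO peak, a peak near a marker gene does not identify a cell type.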

How the data were processed

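ATAC-seq peak lists of C2C12 cells in growth medium, 1 per genotype, were used with the deposited shared and specific lists (5 in all). Each list has a narrowPeak layout without header, and its fold (a linear ratio of the peak over its background) and −log10 q were deposited by the authors. Peak names hold the replicate 1 library's label, and skipped numbers show that calls had been removed before deposit. Peaks are on mm10, per the submitters' processing notes, which is the GRCm38 assembly of the RefSeq gene table (GRCm38.p6). The rule for that removal, any part of replicates 2 and 3 in it, the aligner, peak caller, Tn5 offset and duplicate handling are not given in the sources used here. Depth is unknown. Each of these can change the number and edges of peaks.

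Classes were taken from the deposited lists and equal an overlap of at least 1 bp, as recomputed here and with bedtools 2.31.1. Calculations ran in Python 3.11.15 (numpy 2.4.6) with scipy 1.17.1 and pandas 2.3.3, and 5 of 5 checks passed, on simulated data or against bedtools. All 10 members were named, with each genotype-specific peak and the strongest peaks; other genes were named with at least 3 specific peaks of 1 genotype. The members and gene lists were chosen with earlier results of these data known. Coordinates count from 1. Alternatives changed gene distance, assignment, overlap rule and −log10 q threshold.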

Additional observations from a re-analysis of the deposited data

How the results depend on the processing

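The share of WT specific peaks at the 10 genes (30.4%) stayed within its 95% Wilson interval (19.1 to 44.8%, which counts peaks only) under 19 of 21 alternatives. The exceptions were 9.09% for peaks that reached the WT list's median −log10 q and 18.2% with both lists limited to the WT median, where all WT peaks gave 6.17% and 25.4%. The largest share inside the interval was 41.3% (19 of 46) with the reciprocal overlap of 50%, against 35.0% of all WT peaks. The interval is wide and treats peaks as independent, and leaving out 1 gene keeps most peaks. Staying inside it is therefore a weak criterion. Genes with a WT specific peak (8) numbered 6 with the gene body only, 7 within 5 kb, 10 within 20 or 50 kb, 9 with a reciprocal overlap of 50%, and 2 at or above the median. The share of protein-coding genes was taken only under the 10 kb rule (39.1%), so these counts have no share of their own setting beside them. The KO share (3.03%, 1 peak) was 18.2% both with an overlap of 50% of the peak and with a reciprocal one, against 14.9% and 18.4% of all KO peaks, and 0 without Cdh2. It was 9.09% by the centre of the peak (all: 13.3%), 14.3% with both lists at the WT median (all: 14.8%), 4.55% within 20 kb and 6.67% within 50 kb. At or above the KO median it was 5.26%, 1 peak of 19, and so above the 1.45% of all KO peaks there. At the 46 other genes, the WT share was 35.7% with the reciprocal overlap (all: 35.0%) and 8.60% at or above the median (all: 6.17%), and the KO share 16.2% (all: 18.4%) and 4.0% (all: 1.45%). A stricter overlap removes partners and a threshold removes weak peaks by construction. The second Jam2 peak has a partner when 500 bp are allowed. No paired analysis was possible because the lists hold values of 1 library per genotype. Leaving out replicates was not run for the same reason.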
